A study of Mus musculus with 24 samples.

Results

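The 10 genes described here are protein genes of the mitochondrial genome: mt-Nd1, mt-Nd2, mt-Nd4, mt-Nd5, mt-Nd6, mt-Cytb, mt-Co1, mt-Co2, mt-Co3 and mt-Atp6. They were taken by gene symbol from a table of 21965 mouse genes. The table holds 13 genes of the mitochondrial genome, all protein genes, and the other 3 (mt-Nd3, mt-Nd4l and mt-Atp8) are given beside them. All 10 members passed the filter on low counts.

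Mitochondria keep a small circular genome that encodes core subunits of the respiratory chain, and the other subunits of the same complexes are encoded in the nucleus and imported. Both strands of the circle are transcribed as long precursors, which are cut into single RNAs largely at the transfer RNAs that lie between the genes, and most of the messenger RNAs then receive a short poly(A) tail. Skeletal muscle relies on these complexes to make ATP during sustained work, and complex I passes electrons in, complex III and complex IV hand them on to oxygen, and complex V makes the ATP.

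RNA was sequenced from the gastrocnemius of the mouse, a large muscle of the calf, in 24 libraries, 4 in each of 6 groups. These were a control group and muscle that had lost its motor nerve supply (denervation) 1, 3, 5, 7 or 14 days earlier. The sources used here do not give strain, genotype, sex, age, how the muscle was denervated or whether control muscle had a sham operation. Since no label ties the 4 libraries of a group to separate animals, each p-value measures only the spread between libraries, possibly a technical one, and each day is compared with the same 4 control libraries.

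Library totals ran from 16082846 to 20696900 counts. All libraries carry gastrocnemius as their tissue label, but the extraction protocol speaks of neurons of the dorsal root ganglion. The summed TPM (a level per length that sums to the same total in each library) of 11 muscle fibre markers was 204680 to 206070 in control, 130000 to 130990 at day 1, 144870 to 147040 at day 3, 120050 to 122090 at day 5, 85800 to 86435 at day 7 and 82119 to 82572 at day 14, with no marker at 0. The summed TPM of 14 sensory neuron markers was 8.13 to 9.77 in control, 44.4 to 49.6 at day 1, 10.5 to 11.9 at day 3, 58.9 to 64.9 at day 5, 37.9 to 50.6 at day 7 and 142 to 147 at day 14. Among these, Scn9a and Scn10a were at 0 in every control library. Day 3 library 2 stood apart from the other 3 libraries of its group in several members, and results that change without it are marked.

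On the mitochondrial chromosome of GRCm38 (GENCODE M21 annotation, which may not be the authors' build), the complex I genes lie at 2751 to 3707 (mt-Nd1), 3914 to 4951 (mt-Nd2), 10167 to 11544 (mt-Nd4), 11742 to 13565 (mt-Nd5) and 13552 to 14070 (mt-Nd6). The complex IV genes lie at 5328 to 6872 (mt-Co1), 7013 to 7696 (mt-Co2) and 8607 to 9390 (mt-Co3). The gene of complex V, mt-Atp6, lies at 7927 to 8607 and that of complex III, mt-Cytb, at 14145 to 15288. Each is a single exon without introns. Of the 10, mt-Nd6 alone is on the minus strand, and its RNA is 28.1% G and 5.97% C, whereas the other 9 have 8.0 to 16.1% G and 23.8 to 27.8% C.

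The ends of the annotated genes are shown because the libraries were made from RNA caught by its poly(A) tail. Below are the last 30 bases of 6 members, 5′ to 3′ on the strand of the gene, with the stop codon or what is left of it in capitals. In 3 of the 10 members (mt-Nd4, mt-Cytb and mt-Co3) the gene ends in a lone T, and the poly(A) tail completes the stop codon.
mt-Co1, chrM:6843-6872, plus strand: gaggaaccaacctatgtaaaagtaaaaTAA
mt-Co3, chrM:9361-9390, plus strand: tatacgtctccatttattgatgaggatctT
mt-Atp6, chrM:8578-8607, plus strand: gtaagcctatatctacatgataatacaTAA
mt-Cytb, chrM:15259-15288, plus strand: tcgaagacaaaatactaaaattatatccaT
mt-Nd4, chrM:11515-11544, plus strand: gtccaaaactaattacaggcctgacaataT
mt-Nd6, chrM:13552-13581, minus strand: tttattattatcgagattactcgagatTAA

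Neighbouring genes overlap in places, and reads there match both genes by position. The overlaps are shown on the plus strand of GRCm38 with 10 bases on each side, the shared bases in capitals. The gene mt-Atp8 shares 43 bases with mt-Atp6, mt-Nd4l shares 7 with mt-Nd4, and the ends of mt-Nd5 and mt-Nd6, on opposite strands, share 14. The single base that mt-Atp6 shares with mt-Co3, at chrM position 8607, is not shown.
mt-Atp8 and mt-Atp6, chrM:7917-7979: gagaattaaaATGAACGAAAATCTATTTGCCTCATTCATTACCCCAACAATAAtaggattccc
mt-Nd4l and mt-Nd4, chrM:10157-10183: acctactacaATGCTAAaaattattct
mt-Nd5 and mt-Nd6, chrM:13542-13575: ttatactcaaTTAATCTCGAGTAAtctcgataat

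Whether the counting used read strand is not stated in the sources used here, so counts of mt-Nd6 cannot be told apart from RNA of the opposite strand. All expected counts of the 13 genes were whole numbers. Copies of mitochondrial sequence lie in the nuclear genome, and how reads that match both were assigned is also not given.

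Per length, mt-Co1, the catalytic subunit of complex IV, was the most abundant member in every group, and mt-Nd6, a membrane subunit of complex I, the least abundant. This order is that of RNA caught by its poly(A) tail. In control, the levels were 46014 ± 751 TPM for mt-Co1 (SD, n = 4 here and below), 32810 ± 444 for mt-Co3, 14353 ± 225 for mt-Co2, 10351 ± 84.2 for mt-Atp6 and 9352 ± 198 for mt-Nd1. They went on with 8533 ± 146 TPM for mt-Cytb, 6200 ± 102 for mt-Nd4, 4404 ± 122 for mt-Nd2, 3706 ± 130 for mt-Nd5 and 2112 ± 73.0 for mt-Nd6. No 2 neighbours in this order overlapped in control.

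At day 14 the levels were 35500 ± 219 TPM for mt-Co1, 30539 ± 439 for mt-Co3, 19486 ± 437 for mt-Co2, 16180 ± 246 for mt-Atp6, 12850 ± 59.0 for mt-Cytb and 10749 ± 77.5 for mt-Nd1. Below them stood mt-Nd4 at 8732 ± 174, mt-Nd2 at 4207 ± 18.0, mt-Nd5 at 4030 ± 72.6 and mt-Nd6 at 2331 ± 88.9 TPM. The order of the 10 was the same in control and at days 1, 3, 5 and 7, and at day 14 mt-Cytb stood above mt-Nd1 with no overlap (12797 to 12911 against 10650 to 10839 TPM). At day 5 the ranges of these 2 overlapped (7430 to 8151 TPM for mt-Nd1 and 7407 to 7990 for mt-Cytb), though mt-Nd1 was above mt-Cytb within each library. The level of mt-Co1 was 21.8 times that of mt-Nd6 in control, 24.3 times at day 3 and 15.2 times at day 14.

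Together the 10 members held 9.18, 8.90, 8.98 and 8.86% of all counts in the control libraries. They held 6.20, 6.11, 6.24 and 6.26% at day 1, 6.23, 6.47, 6.15 and 6.15% at day 3, and 5.94, 5.70, 5.51 and 5.55% at day 5. They held 7.15, 7.13, 7.12 and 7.06% at day 7 and 8.58, 8.64, 8.70 and 8.63% at day 14. No library of any day reached the lowest control library, and day 5 was the lowest group, with no library as high as any of the other days.

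Against control the share fell by 2.78, 2.73, 3.31, 1.86 and 0.34 percentage points at days 1, 3, 5, 7 and 14. Each of these differences had an exact two-sided permutation p of 0.0286, the smallest that 4 libraries against 4 can give (adjusted p = 0.0321 over the 9 pairs of groups compared). The same test found day 5 lower than day 3 by 0.575 points, day 7 higher than day 5 by 1.44 points and day 14 higher than day 7 by 1.52 points (exact p = 0.0286 each). Day 3 and day 1 differed by 0.0471 points (exact p = 0.714). As a share of summed TPM rather than counts, the members stood at 13.8 ± 0.192% in control and 14.5 ± 0.0791% at day 14, so the direction at day 14 depends on the unit, and day 5 against day 3 no longer passed (−0.218 points, exact permutation adjusted p = 0.23).

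**Figure D1:**
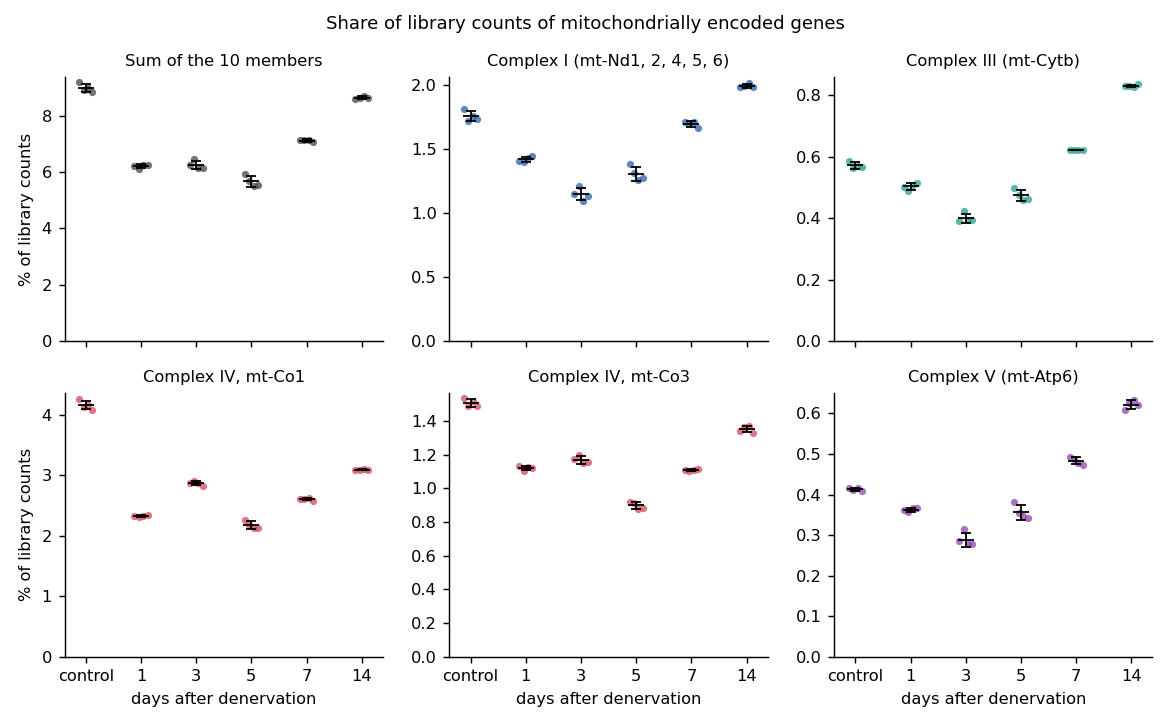
Share of library counts (%, y axis from 0) of the 10 members together, of the complex I members, mt-Cytb, mt-Co1, mt-Co3 and mt-Atp6, in control and at 1, 3, 5, 7 and 14 days after denervation. Points are libraries, bars are the mean ± SD of 4; mt-Atp6 and mt-Cytb end above control at day 14 while mt-Co1 and mt-Co3 stay below it.

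Most of this difference lay in complex IV, whose 3 members summed to 6.24 ± 0.0938% of counts in control, 3.92 ± 0.0353% at day 1 and 3.54 ± 0.108% at day 5. The share of mt-Co1 was 4.26, 4.14, 4.17 and 4.09% of counts in control, 2.32, 2.31, 2.33 and 2.35% at day 1 and 2.87, 2.92, 2.87 and 2.82% at day 3. It was 2.26, 2.19, 2.13 and 2.13% at day 5, 2.60, 2.62, 2.63 and 2.58% at day 7 and 3.09, 3.09, 3.11 and 3.09% at day 14. All 20 libraries of the denervated groups lay below all control libraries, and day 3 lay above days 1, 5 and 7 without overlap.

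To compare genes between groups, counts were also scaled with TMM, which sets the bulk of genes equal between libraries, and tested with edgeR over all 14246 genes that passed the filter. A gene is said to have risen or fallen where its edgeR adjusted p was below 0.05. On this scale mt-Co1 stood at 59480 ± 1495 CPM (counts scaled to library size) in control, 22210 ± 175 at day 1, 31610 ± 304 at day 3, 19880 ± 590 at day 5, 21920 ± 171 at day 7 and 26900 ± 101 at day 14. It fell at each day, by a log2 change of −1.42, −0.91, −1.58, −1.44 and −1.15 in that order (SE 0.014, edgeR adjusted p at most 5.4e-43).

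The share of mt-Co3, a core subunit of complex IV, was 1.53, 1.49, 1.52 and 1.49% in control and 1.13, 1.1, 1.13 and 1.12% at day 1. It was 1.17, 1.20, 1.15 and 1.15% at day 3 and 0.919, 0.914, 0.877 and 0.886% at day 5. At day 7 it was 1.11, 1.1, 1.11 and 1.11%, and at day 14 it was 1.34, 1.36, 1.37 and 1.33%. Day 5 was the lowest group without overlap, and no denervated library reached control.
On the TMM scale mt-Co3 fell by log2 −1.01, −0.74, −1.39, −1.21 and −0.87 at days 1, 3, 5, 7 and 14 (SE 0.015, edgeR adjusted p at most 2.1e-38).

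The third subunit of this complex did not follow the other two. The share of mt-Co2, which takes electrons from cytochrome c, was 0.581, 0.578, 0.562 and 0.578% in control and 0.361, 0.413, 0.363 and 0.364% at day 3. At day 7 it was 0.616, 0.598, 0.579 and 0.605% and at day 14 it was 0.736, 0.745, 0.748 and 0.779%. The day 14 libraries thus lay above every control library in share of counts. With TMM, mt-Co2 fell by log2 −0.86, −0.99, −0.96, −0.71 and −0.33 at the 5 days (SE 0.029, edgeR adjusted p at most 3.1e-14), whereas with library totals alone it stood at 0.06 at day 7 and 0.39 at day 14.

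For mt-Atp6, the membrane subunit of complex V that forms part of its proton channel, the share was 0.415, 0.412, 0.416 and 0.408% in control and 0.362, 0.356, 0.368 and 0.366% at day 1. It was 0.285, 0.315, 0.277 and 0.277% at day 3 and 0.383, 0.354, 0.346 and 0.342% at day 5. It was 0.493, 0.488, 0.478 and 0.473% at day 7 and 0.607, 0.625, 0.633 and 0.622% at day 14. Day 3 held the lowest share and days 7 and 14 the highest, all without overlap with control.
With TMM, mt-Atp6 fell by log2 −0.77, −0.89, −0.86, −0.54 and −0.13 (SE 0.025 to 0.026, edgeR adjusted p at most 2.2e-05), and with library totals alone it was at 0.23 at day 7 and 0.59 at day 14.

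The complex III member, mt-Cytb, which encodes cytochrome b, had a share of 0.587, 0.564, 0.570 and 0.566% in control and 0.502, 0.489, 0.506 and 0.514% at day 1. It had 0.390, 0.422, 0.393 and 0.393% at day 3 and 0.498, 0.475, 0.459 and 0.462% at day 5. It had 0.622, 0.622, 0.621 and 0.622% at day 7 and 0.828, 0.828, 0.826 and 0.836% at day 14. Its course was that of mt-Atp6, with day 3 lowest and days 7 and 14 above control in share. With TMM, mt-Cytb fell by log2 −0.77, −0.89, −0.92, −0.64 and −0.18 (SE 0.020, edgeR adjusted p at most 4.8e-11), and with library totals alone it was at 0.12 at day 7 and 0.54 at day 14.

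The 5 members of complex I, all subunits of its membrane arm, summed to 1.81, 1.72, 1.75 and 1.73% of counts in control and 1.15, 1.21, 1.09 and 1.13% at day 3. At day 7 they summed to 1.71, 1.70, 1.71 and 1.66%, below every control library, and at day 14 to 1.98, 1.99, 2.01 and 1.98%, above every control library. The subunit mt-Nd4 had the widest course, from 0.500 ± 0.00864% in control to 0.311 ± 0.0106% at day 3 and 0.679 ± 0.0120% at day 14. In contrast mt-Nd2 stayed below control at day 14, with 0.246 ± 0.00150% against 0.268 ± 0.00768%. The smallest share was that of mt-Nd6, with 0.0642 ± 0.00230% in control, 0.0397 ± 0.00555% at day 3 and 0.0683 ± 0.00282% at day 14, where its libraries overlapped those of control.
With TMM, the complex I members fell by log2 −0.82 to −1.07 at day 1, −0.90 to −1.08 at day 3, −0.92 to −1.22 at day 5, −0.66 to −1.06 at day 7 and −0.28 to −0.84 at day 14, and the highest edgeR adjusted p was 1.2e-15.

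With TMM, then, all 10 members fell at every day. The median log2 change over the 10 was −0.88 at day 1, −0.91 at day 3, −1.12 at day 5, −0.87 at day 7 and −0.60 at day 14. The medians over all genes tested were 0.03, −0.03, 0.03, 0.05 and 0.06. Of all genes tested, 36.2% fell at day 1, 35.7% at day 3, 35.8% at day 5, 36.7% at day 7 and 35.3% at day 14, so a fall was common in these data. No library of any of the 10 overlapped control at any day, on a background of 32.7, 30.7, 32, 33.5 and 32.3% of genes that were lower than control without overlap.

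The direction at days 7 and 14 depended on the scaling. The TMM factors were 0.693 to 0.707 in the control libraries and 0.904 to 1.19 in all others. Without TMM, on library totals alone, the median log2 change of all genes was 0.61, 0.34, 0.68, 0.82 and 0.78 at the 5 days. On that scale all 10 members were lower at days 1, 3 and 5 (background 13.3, 18.2 and 11.8% of genes lower and 70.5, 54.9 and 72.2% higher). At day 7 the same scaling had 5 members lower and 5 higher (background 12.2 and 74.4%), and at day 14 it had 3 lower, 6 higher and 1, mt-Nd6, that did not pass (edgeR adjusted p = 0.084, background 11.7 and 74.4%). The 3 that were lower under both scalings at day 14 were mt-Co1 (log2 −0.43 with library totals), mt-Co3 (−0.16) and mt-Nd2 (−0.12). Less RNA of the members per fibre and less fibre in the tissue cannot be told apart in bulk muscle.

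**Figure D2:**
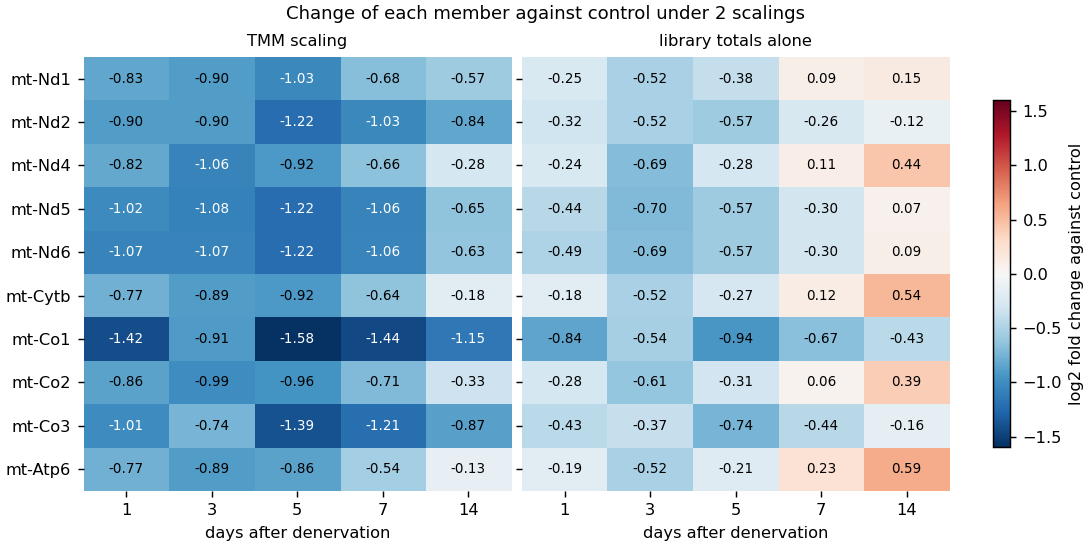
Log2 fold change of each member against control at 1, 3, 5, 7 and 14 days (colour and printed value), with TMM scaling (left) and with library totals alone (right). With TMM every cell is negative; with library totals 5 members at day 7 and 7 at day 14 have positive values, 1 of which (mt-Nd6 at day 14) did not pass the edgeR test.

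Between neighbouring days, which hold no control library, the members split at day 3. From day 1 to day 3, mt-Co1 rose by log2 0.51 ± 0.014 (SE) and mt-Co3 by 0.27 ± 0.015, 6 members fell and 2, mt-Nd2 (0.00 ± 0.023) and mt-Nd6 (0.00 ± 0.050), did not pass. The background was 36.1% of genes that rose and 38% that fell. The largest of these falls was that of mt-Nd4, by log2 0.24 ± 0.022, and the smallest that of mt-Nd5, by 0.06 ± 0.026. The edgeR adjusted p of mt-Nd5 was 0.046, and its call was lost under many alternatives, with 0.072 when day 1 library 2 was left out and 0.54 without day 3 library 3. Without day 3 library 2, mt-Nd6 fell instead, by log2 0.09 (edgeR adjusted p = 0.044).

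From day 3 to day 5, mt-Co1 fell by log2 0.67 ± 0.014 and mt-Co3 by 0.65 ± 0.015, and mt-Nd2 fell by 0.32 ± 0.023. The falls of mt-Nd1, mt-Nd5 and mt-Nd6 were smaller, at log2 −0.13, −0.14 and −0.15, and had overlapping libraries. That of mt-Nd6 was lost without day 3 library 2 (log2 −0.05, edgeR adjusted p = 0.23). It was also lost with DESeq2 (log2 −0.13, DESeq2 adjusted p = 0.12) and with only these 2 groups in the fit (log2 −0.11, edgeR adjusted p = 0.075). With all libraries only mt-Nd4 rose (0.14 ± 0.022), and mt-Atp6, mt-Co2 and mt-Cytb did not pass (log2 0.04, 0.03 and −0.02). Without day 3 library 2, mt-Atp6 and mt-Co2 rose too (log2 0.077 and 0.079, edgeR adjusted p = 0.0015 and 0.0034). Both also rose with only these 2 groups in the fit (log2 0.076 and 0.072, edgeR adjusted p = 0.02 and 0.037). With TMM and all libraries, 1 member rose and 6 fell, on a background of 38.2 and 39.2%. On library totals alone, 7 rose and 3 fell (background 51.6 and 25.4%), and the 3 were mt-Co1, mt-Co3 and mt-Nd2.

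With TMM all 10 members rose from day 5 to day 7, by log2 0.14 to 0.35, and again from day 7 to day 14, by 0.11 to 0.46. With library totals alone all 10 rose as well, by log2 0.26 (mt-Co1) to 0.47 (mt-Nd1) in the first step and by 0.06 (mt-Nd1) to 0.41 (mt-Cytb) in the second. The highest edgeR adjusted p values with TMM were 0.0067 and 4.0e-05. With DESeq2, mt-Nd6 did not pass in the first step (log2 0.14, DESeq2 adjusted p = 0.094). The background of genes that rose was 33.8 and 26% with TMM, and 43.1 and 21% with library totals alone. With TMM the range of the first step ran from mt-Co1 at 0.14 to mt-Nd1 at 0.35, and that of the second from mt-Nd1 at 0.11 to mt-Cytb at 0.46. Libraries of neighbouring groups did not overlap for 9 of 10 members in the first step (mt-Nd6 overlapped) and for 10 of 10 in the second, on a background of 29.7 and 23%.

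The balance among the members was then compared inside each library, where the scaling cancels. Each member was expressed as a percent of the summed TPM of the 10. In control, mt-Co1 made up 33.4 ± 0.12% of that sum. It made up 25.9 ± 0.15% at day 1, 32.8 ± 0.64% at day 3, 26.6 ± 0.23% at day 5, 25.2 ± 0.22% at day 7 and 24.6 ± 0.14% at day 14. It was thus lower at days 1, 5, 7 and 14 (exact permutation p = 0.0286 each, adjusted p = 0.042 over 50 pairs of member and day), and day 3 did not pass (exact p = 0.143, adjusted p = 0.179).

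Several other members made up a larger part of the sum at the same days. The share of mt-Atp6 in the sum was 7.51 ± 0.081% in control and 9.15 ± 0.050, 7.47 ± 0.24, 9.88 ± 0.17, 10.6 ± 0.14 and 11.2 ± 0.12% at days 1, 3, 5, 7 and 14. That of mt-Cytb was 6.19 ± 0.030% in control and 7.55 ± 0.073, 6.16 ± 0.082, 7.82 ± 0.010, 8.12 ± 0.047 and 8.89 ± 0.079%. That of mt-Co2 was 10.4 ± 0.20% in control and 11.9 ± 0.12, 9.68 ± 0.38, 12.8 ± 0.31, 13.1 ± 0.30 and 13.5 ± 0.31%. In these 3 the exact permutation test passed at days 1, 5, 7 and 14 and did not pass at day 3, where mt-Atp6 and mt-Cytb had an adjusted p of 0.857 and 0.641 and mt-Co2 of 0.0816.

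The complex I members were less uniform. The part of mt-Nd4 was 4.50 ± 0.034% in control and 5.27 ± 0.085, 3.98 ± 0.051, 5.67 ± 0.036, 5.85 ± 0.10 and 6.04 ± 0.10% at the 5 days, and all 5 differences passed (exact p = 0.0286, adjusted p = 0.042). That of mt-Nd1 was 6.78 ± 0.054% in control, 8.69 ± 0.062% at its highest, at day 7, and 7.43 ± 0.067% at day 14. That of mt-Nd6 was 1.53 ± 0.041% in control and between 1.35 ± 0.15 and 1.61 ± 0.059% at the 5 days, and no difference passed (exact p from 0.0857 to 0.457).

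Over the 10 members, 7 rose in part and 1 fell at day 1, 1 rose and 2 fell at day 3, 6 rose and 2 fell at day 5, 5 rose and 2 fell at day 7, and 5 rose and 3 fell at day 14. The member that rose at day 3 was mt-Co3, from 23.8 ± 0.11 to 26.3 ± 0.28%, and those that fell were mt-Nd4 and mt-Nd5. At days 5, 7 and 14 mt-Co3 was below control (21.7 ± 0.40, 21.1 ± 0.19 and 21.1 ± 0.25%), and at day 1 it was slightly above it (24.5 ± 0.16%). Parts of 1 sum are not independent, since a fall of the largest raises the others.

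**Figure D3:**
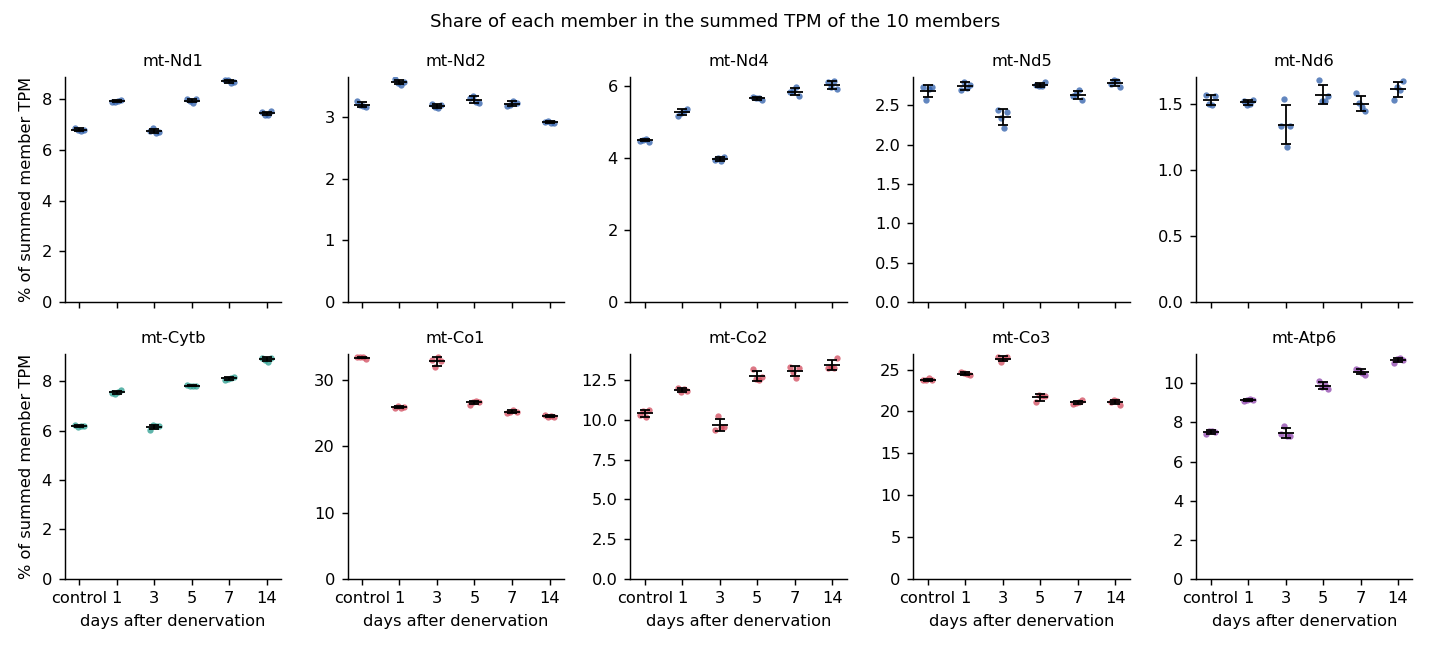
Percent of the summed TPM of the 10 members held by each member (y axes from 0, scaled to each gene), in control and at 1, 3, 5, 7 and 14 days after denervation. Points are libraries and bars the mean ± SD of 4; for mt-Co1, mt-Cytb and mt-Atp6 day 3 lies beside control while days 1, 5, 7 and 14 lie apart from it.

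A direct ratio of 2 genes shows the size of this. The level of mt-Atp6 per length was 22.1 to 22.7% of that of mt-Co1 in control, 35.1 to 35.8% at day 1, 21.9 to 24.5% at day 3, 36.5 to 38.4% at day 5, 41.3 to 42.9% at day 7 and 44.6 to 46.1% at day 14. The ratio of mt-Co3 to mt-Co1 had group means from 71.3% in control to 94.8% at day 1. By contrast, the ratio of mt-Cytb to mt-Atp6 had group means from 76.7 to 82.5%, and that of mt-Nd6 to mt-Nd5 from 55.1 to 57.9%. Since use of read strand is not stated, counts of mt-Nd6 may hold RNA of the opposite strand. These pairs were chosen after their values were seen and are a description without a test.

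The 3 other protein genes are short. Counts of mt-Nd4l and mt-Atp8 were below those of every member in each group. Those of mt-Nd3 were above mt-Nd6 in each group (0.109% against 0.0642% of counts in control) and below every other member. The complex I gene mt-Nd3 fell with TMM by log2 −0.71, −0.38, −1.24, −0.85 and −0.63 at the 5 days, with a highest edgeR adjusted p of 5.3e-08 (at day 3, where libraries overlapped control), and with library totals alone it passed at days 1 and 5 alone. Another complex I gene, mt-Nd4l, fell by log2 −0.69, −0.68, −0.78, −0.45 and −0.23, the last with an edgeR adjusted p of 0.018 that was lost with DESeq2 (adjusted p = 0.13) and without control library 3 (0.065), control library 4 (0.067), day 14 library 1 (0.061) or day 14 library 3 (0.055). The complex V gene mt-Atp8 fell by −0.40, −0.48, −0.81 and −0.35 at days 1, 3, 5 and 7 and did not pass at day 14 (log2 −0.12, edgeR adjusted p = 0.29). With library totals alone, mt-Atp8 did not pass at days 1, 3 and 5 (edgeR adjusted p = 0.11, 0.37 and 0.15), nor mt-Nd4l at days 1 and 5 (0.26 and 0.17). Both genes were above control at days 7 and 14 with library totals alone (log2 0.31 and 0.485 for mt-Nd4l and 0.41 and 0.60 for mt-Atp8). Day 3 library 2 was high in mt-Nd3 (0.137% of counts against 0.0987 to 0.101% in the other 3) and in mt-Nd4l (0.0217% against 0.0121 to 0.0134%).

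Across the 24 libraries, log2 CPM of the members correlated with a Pearson r from 0.65 (mt-Atp6 with mt-Co1) to 0.99 (mt-Atp6 with mt-Cytb). On log2 shares of counts, without TMM, the same 2 pairs had r of 0.27 and 0.99. This is a description over 24 libraries in 6 groups, and members share each library's depth and scaling. The libraries fall in groups that stand apart, so the values mainly order the groups.

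The complexes also hold nuclear subunits, and the 10 members were set against these within each library as a ratio of summed TPM. For complex I (5 mitochondrial members, 36 nuclear subunits) the ratio was 2.73, 2.59, 2.59 and 2.52 in control and 1.72, 1.65, 1.65 and 1.70 at day 3. It was 2.85, 2.82, 2.77 and 2.86 at day 1, 2.94, 2.88, 2.67 and 2.80 at day 5, 2.98, 3.03, 3.19 and 3.02 at day 7 and 3.37, 3.26, 3.33 and 3.25 at day 14. Day 3 lay far below control and all other days at or above it, with an overlap at day 5 alone. The exact permutation p was 0.0286 at days 1, 3, 7 and 14 (adjusted p = 0.0336 over 20 pairs of complex and day) and 0.0571 at day 5 (adjusted p = 0.0602).

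The ratios of complex III (mt-Cytb against 9 nuclear subunits) and complex V (mt-Atp6 against 15) also lay below control at day 3 and above it at the other 4 days. The complex III ratio was 1.91 ± 0.059 in control and 2.42 ± 0.037, 1.37 ± 0.027, 2.45 ± 0.046, 2.68 ± 0.030 and 3.31 ± 0.052 at days 1, 3, 5, 7 and 14. The complex V ratio was 0.846 ± 0.021 in control and 1.04 ± 0.011, 0.627 ± 0.013, 1.11 ± 0.048, 1.28 ± 0.024 and 1.54 ± 0.029. Each of these 10 differences from control passed (exact p = 0.0286, adjusted p = 0.0336), and the ratio at day 14 was 1.74 times control for complex III and 1.82 times for complex V.

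The complex IV ratio (mt-Co1, mt-Co2 and mt-Co3 against 14 nuclear subunits) was below control at days 1 and 3 and above it at day 14. It was 10.2 ± 0.23 in control, 9.33 ± 0.22 at day 1, 7.21 ± 0.48 at day 3 and 11.1 ± 0.20 at day 14, all with an exact p of 0.0286 (adjusted p = 0.0336). It was 9.85 ± 0.25 at day 5 (exact p = 0.114) and 10.7 ± 0.43 at day 7 (exact p = 0.0571, adjusted p = 0.0602). Within day 3, library 2 had the lowest complex IV ratio, 6.49, against 7.41 to 7.49 in the other 3, and without it the day remained below every control library (9.91 to 10.5).

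Day 3 was the day at which all 4 ratios were below control. There the summed TPM of the mitochondrial members was 0.681 (complex I), 0.721 (III), 0.737 (IV) and 0.721 (V) times control, while that of the nuclear subunits was 1.06, 1.00, 1.05 and 0.974 times control. At day 5, by comparison, mitochondrial members stood at 0.805, 0.896, 0.640 and 0.933 times control and nuclear subunits at 0.743, 0.697, 0.663 and 0.709. At day 14 mitochondrial members stood at 1.17, 1.51, 0.918 and 1.56 times control and nuclear subunits at 0.919, 0.866, 0.843 and 0.858.

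**Figure D4:**
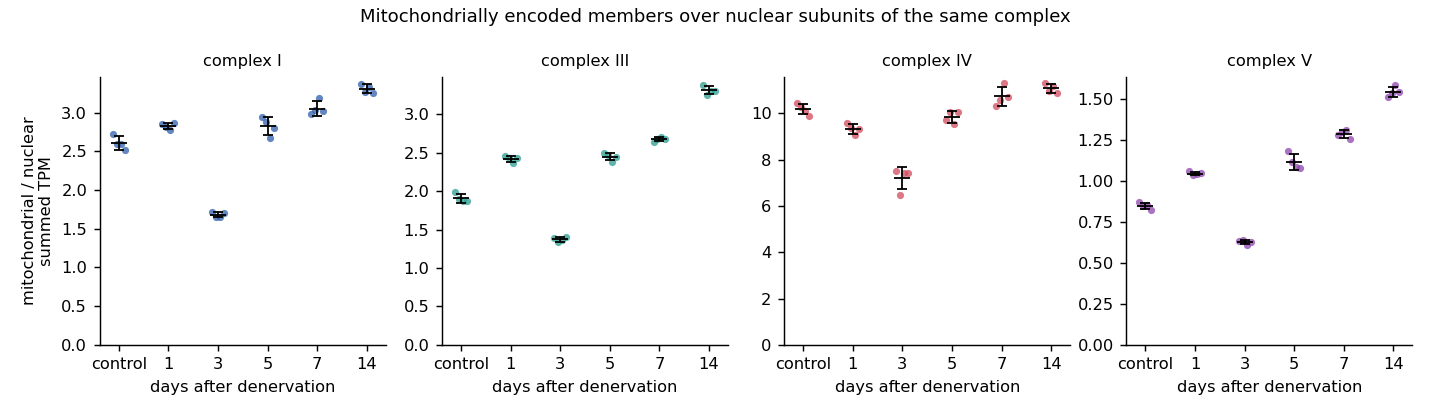
Summed TPM of the mitochondrially encoded members divided by the summed TPM of the nuclear subunits of the same complex (y axes from 0), in control and at 1, 3, 5, 7 and 14 days after denervation. Points are libraries and bars the mean ± SD of 4; day 3 is the lowest group in all 4 complexes and day 14 the highest group mean in all 4.

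With TMM the nuclear subunits fell as well, but least at day 3. In complex I, 36 of 36 fell at days 1, 5, 7 and 14 and 33 at day 3, with medians of log2 −0.99, −0.35, −1.16, −0.97 and −0.88 at days 1, 3, 5, 7 and 14. In complex III, 9 of 9 fell at each day, with medians of −1.01, −0.46, −1.34, −1.21 and −1.03. In complex IV, 12, 11, 13, 12 and 12 of 14 fell and 2, 1, 0, 2 and 0 rose, and in complex V, 15, 14, 15, 15 and 15 of 15 fell. On library totals alone, the complex I subunits at day 3 split into 13 higher, 8 lower and 15 that did not pass, with a median of 0.02. On that scale 54.9% of all genes were higher and 18.2% lower at day 3, with a median of 0.34. The background with TMM was 36.2, 35.7, 35.8, 36.7 and 35.3% of genes that fell at the 5 days. That of genes that rose was 38.1, 34.5, 38.5, 40.2 and 39.2%.

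Among nuclear subunits the largest changes were those of muscle forms of complex IV. At day 7 Cox7a1, the heart and muscle form of subunit 7a, fell 8.77-fold (log2 −3.13 ± 0.07 SE), from 141 ± 5.8 to 16.1 ± 0.75 CPM, Cox8b fell 4.14-fold and Cox6a2 3.35-fold. In complex III, Uqcrc1, a core subunit of the matrix side, fell 2.90-fold at day 5. The highest edgeR adjusted p among these was 8.6e-27, and each was lower with library totals alone too.

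The genes that transcribe, process and translate mitochondrial RNA are nuclear. Of 10 genes for mitochondrial transcription and its termination, 7 fell and 1 rose at day 1, 6 and 0 at day 3, 5 and 0 at day 5, 5 and 2 at day 7, and 4 and 3 at day 14 (edgeR with TMM). The background over all genes was 36.2, 35.7, 35.8, 36.7 and 35.3% that fell and 38.1, 34.5, 38.5, 40.2 and 39.2% that rose at the 5 days. With library totals alone, 1 gene was lower and 3 were higher at day 1, 3 and 3 at day 3, 0 and 6 at day 5, 1 and 9 at day 7, and 1 and 8 at day 14. On that scale 13.3, 18.2, 11.8, 12.2 and 11.7% of all genes were lower and 70.5, 54.9, 72.2, 74.4 and 74.4% higher. Polrmt, the mitochondrial RNA polymerase, stood at 45.8 ± 2.8 CPM in control and 20.3 ± 1.8 at day 7, a fall of log2 1.17 ± 0.07 (edgeR adjusted p = 1.3e-20). It was also lower at day 7 with library totals alone (log2 −0.41). Mterf2, of the mitochondrial termination factor family, fell from 6.53 ± 1.0 to 1.69 ± 0.66 CPM at day 3 and was above control at day 14 (log2 0.66 ± 0.15, edgeR adjusted p = 9.2e-05).
Tfb1m, a methyltransferase of mitochondrial ribosomal RNA, fell at day 3 (log2 −0.87 ± 0.13) and rose at day 7 (0.86 ± 0.11). Mterf1a rose at day 7 (0.99 ± 0.31) from low counts, 0.901 ± 0.45 to 1.78 ± 0.28 CPM.

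Day 3 also stood apart in the RNA processing list of 25 genes. There 17 rose and 5 fell, whereas 8, 5, 5 and 6 rose and 13, 12, 13 and 13 fell at days 1, 5, 7 and 14. Over all genes, 34.5% rose and 35.7% fell at day 3. At days 1, 5, 7 and 14, 38.1, 38.5, 40.2 and 39.2% of all genes rose and 36.2, 35.8, 36.7 and 35.3% fell. The median of the list was log2 0.29 at day 3 and −0.26, −0.19, −0.18 and −0.19 at days 1, 5, 7 and 14. With library totals alone it was above 0 at every day (0.32 to 0.67), beside 0.34 to 0.82 over all genes. Pde12, which removes poly(A) tails from mitochondrial RNA, rose at every day, most at day 3 (2.23-fold, from 9.06 ± 0.93 to 20.3 ± 1.5 CPM, edgeR adjusted p = 7.6e-15). Rexo2, an exonuclease of short RNA, rose 2.03-fold at day 1. Ptcd1, a pentatricopeptide protein of mitochondrial RNA, rose at day 3 (log2 0.22 ± 0.07) and fell at day 7 (−1.03 ± 0.07), and Mrm3, a methyltransferase of mitochondrial ribosomal RNA, rose at day 3 (0.36 ± 0.09) and fell at day 1 (−0.97 ± 0.10).

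Of 20 genes for replication and upkeep of mitochondrial DNA, 10 rose and 5 fell at day 3, and 5, 6, 6 and 4 rose and 10, 10, 11 and 9 fell at days 1, 5, 7 and 14. The background over all genes was 34.5% that rose and 35.7% that fell at day 3. At days 1, 5, 7 and 14 it was 38.1, 38.5, 40.2 and 39.2% that rose and 36.2, 35.8, 36.7 and 35.3% that fell. Slc25a4, the muscle exchanger of ADP and ATP, fell 4.09-fold at day 7 (from 2683 ± 27.7 to 657 ± 11 CPM). Primpol, a primase and polymerase, rose 3.53-fold at day 7, Exog, a mitochondrial nuclease, rose 3.49-fold at day 3, and Dna2, a helicase and nuclease, rose 2.60-fold at day 7, all 3 from under 3 CPM in control. Under library totals alone, 13, 13, 16, 15 and 15 of the 20 were higher, beside the 70.5, 54.9, 72.2, 74.4 and 74.4% of all genes that were.

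Of 14 translation factors, 10, 7, 10, 7 and 10 fell and 0, 3, 1, 2 and 3 rose at days 1, 3, 5, 7 and 14. Over all genes, 36.2, 35.7, 35.8, 36.7 and 35.3% fell and 38.1, 34.5, 38.5, 40.2 and 39.2% rose at these days with TMM. Oxa1l, which inserts newly made subunits into the inner membrane, fell 2.38-fold at day 7, Taco1, an activator of mt-Co1 translation, fell 1.89-fold at day 5, and Tufm, the elongation factor, fell 1.85-fold at day 5. Guf1, another elongation factor, fell 1.81-fold at day 3. On the scale of library totals, 7, 9, 7, 12 and 10 of the 14 were higher, beside 70.5, 54.9, 72.2, 74.4 and 74.4% of all genes. Of 16 genes of the outer and inner membrane, 8, 6, 12, 11 and 12 fell and 5, 7, 1, 4 and 2 rose, with Vdac1, the outer membrane channel, down 3.5-fold at day 14 and Hspe1, a matrix chaperonin, up 2.13-fold at day 3. On the scale of library totals, 10, 12, 10, 12 and 10 of those 16 were higher. The shares over all genes given above for the translation factors hold for this list too, on each scale.

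Markers of other cell types moved with the groups too, and their part in the members' values was not tested. The summed TPM of 12 macrophage markers was 540 to 559 in control, 2095 to 2142 at day 1, 1200 to 1279 at day 3, 2632 to 2675 at day 5, 2382 to 2428 at day 7 and 1631 to 1701 at day 14. That of 11 lymphocyte markers was 184 to 193 at day 1 and 227 to 249 at day 5, and 2.47 to 8.11 in the libraries of control and days 3, 7 and 14.
That of 8 neutrophil markers was 2.00 to 3.38 in control, 95.2 to 107 at day 1, 180 to 216 at day 3, 222 to 237 at day 5, 77.2 to 87.6 at day 7 and 44.4 to 52.4 at day 14. Ly6g among them was at 0 in all control libraries, Ly6g, Mpo and Elane in all day 7 libraries, and Elane in all day 14 libraries. Erythroid markers (5) summed to 1478 to 1508 TPM in control, 8303 to 8551 at day 1, 468 to 491 at day 3, 807 to 876 at day 5, 734 to 788 at day 7 and 6903 to 7080 at day 14. Adipocyte markers (6) summed to 116 to 126 TPM in control, 1887 to 1944 at day 1 and 480 to 938 at later days, and endothelial markers (8) to 710 to 723 in control and 373 to 502 at all days.

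Outside the mitochondrial genome, the genes whose log2 CPM followed the mean of the 10 members most closely were sought among 9379 genes whose log2 CPM averaged 3 or more. They were Egr1 (r = 0.99 over 24 libraries), Rab3a (0.96), Oxct1 (0.96), Slc8a3 (0.95), Mtus1 (0.95) and Myl1 (0.95). Egr1, an immediate early transcription factor, went from 134 ± 6.7 CPM in control to 19.9 ± 1.1, 18.5 ± 0.55, 15.0 ± 0.72, 23.9 ± 1.4 and 46.1 ± 1.4 at days 1, 3, 5, 7 and 14. Its range was wider than that of the members, though its lowest day, day 5, was the same as that of their summed share. Oxct1, which uses ketone bodies in mitochondria, went from 236 ± 7.5 to 93.5 ± 3.6, 101 ± 0.59, 99.3 ± 1.7, 126 ± 2.5 and 162 ± 5.6 CPM. Myl1, a light chain of fast muscle myosin, went from 16640 ± 302 CPM in control to 4437 ± 42.9 at day 5 and 7745 ± 76.6 at day 14. On the TMM scale these 3, like the members, stood highest in control and rose from day 7 to day 14 in mean level. The likeness was computed on that scale alone, and in share of counts not every member stood highest in control. The 24 libraries fall in 6 groups, so this likeness mainly compares the order and distance of the groups.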

How the data were processed

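Poly(A) RNA libraries were made with oligo(dT) beads and a NEBNext Ultra kit and sequenced on a NovaSeq6000, per the labels' protocols. The authors deposited expected counts and TPM for each gene and library, per the file headers. No aligner, quantifier, genome build or use of strand is given in the sources used here. Fractional values made up 7.01% of the expected counts, which were rounded before testing. Of the identifiers, 21806 matched GENCODE M21 (GRCm38), which gave positions and sequences. The members and gene lists (237 of 239 genes matched) were chosen with earlier results of these data known.

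edgeR 4.0.16 (R 4.3.3) fitted all 24 libraries with TMM, its default expression filter (14246 genes), 1 coefficient per group and the quasi-likelihood test, with 9 two-sided contrasts. P-values were adjusted by Benjamini-Hochberg over all genes tested, with a threshold of 0.05. Shares and within-library ratios were compared with exact two-sided permutation tests, 4 libraries against 4. Named were the 10 members, the other 3 mitochondrial genes, from each list up to 4 genes with the largest change at any day among those that passed, and the 6 genes most like the members. The text gives values for a selection of these, and the rest are not reported here. The programs were tested on simulated data. Alternatives were DESeq2 1.42.0 and its size factors, library totals alone, TMM without mitochondrial genes, other filters, fits of 2 groups, a replicate block, leaving out each library, and TPM or counts exchanged. Chi-square per gene averaged 2.04 to 3.96 in the 36 pairs of libraries within groups, so no 2 libraries agreed within counting noise.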

Additional observations from a re-analysis of the deposited data

Results flagged for a closer look

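In 4 of 66 groups of 4 libraries tested, 1 library of a member lay far from the other 3 in share of counts (its gap was above 0.829 of the range). Chance gives about 1 in 20. In control, library 1 held 0.541% for mt-Nd1 (next 0.520%) and library 3 held 0.562% for mt-Co2 (next 0.578%). At day 3, library 2 held 0.422% for mt-Cytb (next 0.393%) and 0.413% for mt-Co2 (next 0.364%).

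The change from control differed between neighbouring days by edgeR for 8 members between days 1 and 3, 7 between days 3 and 5, 10 between days 5 and 7 and 10 between days 7 and 14. These differences do not contain the control libraries. Such differences were common over all genes: 36.1% rose and 38% fell from day 1 to day 3, and 38.2 and 39.2% from day 3 to day 5. From day 5 to day 7 and from day 7 to day 14, where all 10 members rose, 33.8 and 26% of all genes rose.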

How the results depend on the processing

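The scaling was the choice that changed most. With library totals alone the members that were higher and lower than control numbered 5 and 5 at day 7 and 6 and 3 at day 14. At day 7 the log2 changes of mt-Nd1, mt-Nd4, mt-Cytb, mt-Co2, mt-Atp6, mt-Nd4l and mt-Atp8 turned to 0.089, 0.11, 0.12, 0.061, 0.23, 0.31 and 0.41. At day 14 those of mt-Nd1, mt-Nd4, mt-Nd5, mt-Nd6, mt-Cytb, mt-Co2, mt-Atp6, mt-Nd3, mt-Nd4l and mt-Atp8 turned to 0.15, 0.44, 0.068, 0.090, 0.54, 0.39, 0.59, 0.091, 0.485 and 0.60. At day 1 mt-Atp8 turned to 0.18. From day 1 to day 3, mt-Nd2 and mt-Nd6 turned to −0.20 and −0.20. From day 3 to day 5, mt-Nd1, mt-Nd5, mt-Nd6 and mt-Cytb turned to 0.14, 0.13, 0.12 and 0.25, and 7 members were higher and 3 lower. Members that rose from day 3 to day 5 numbered 2 with size factors of DESeq2 and 3 with only these 2 groups in the fit, and 1 to 3 when libraries were left out in turn (3 without day 3 library 2). Without that library, mt-Nd6 and mt-Nd4l turned to −0.0914 and −0.21 from day 1 to day 3, and with each library left out in turn mt-Nd6 ran from −0.0914 to 0.0725. With TPM in place of counts, the share of the members was 0.677 points above control at day 14 and −0.218 points from day 3 to day 5 (not passed), and with counts in place of TPM 1 complex (complex IV, log2 −0.14) was lower at day 5. The causes were not tested. With 1 library left out, shares have no p below 0.0571, and all 72 values moved by less than 1 SD. DESeq2, TMM without mitochondrial genes and both other filters left every count of members within 1.5 times. Single calls still changed, and with DESeq2 mt-Nd6 lost its calls from day 3 to day 5 and from day 5 to day 7.

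The replicate numbers did not pair the libraries (mean correlation of deviations 0.0039 over 60 pairs with the same number, and 8 of 24 libraries correlated best with their own number). With the replicate block, 116 of 117 values of mitochondrial genes kept their call, and mt-Atp8 from day 7 to day 14 lost it (log2 0.23, edgeR adjusted p = 0.055).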
